A study of Mus musculus with 19 samples.

Results

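Chromatin accessibility after the first 24 h of astrocytic differentiation was compared with that of the neurospheres (NSPs) from which the cells came. The comparison rested on 6 of the 19 ATAC-seq libraries of the series, 3 at 24 h without treatment and 3 of NSPs, and took in all peaks of the processed table. ATAC-seq uses a transposase that inserts adapters into open DNA, so the reads at a site measure how accessible it is. Both groups were primary neural stem cell cultures of wild type C57BL/6J mice, prepared at embryonic day 14 from the ventricular zone of single brains. NSPs grew as floating spheres with EGF at 20 ng/ml and are labelled untreated cells at 0 h. The cells at 24 h had been moved to plates coated with poly-L-ornithine in medium with 10% fetal bovine serum. Loss of EGF, serum and attachment therefore came together, and their effects cannot be told apart. The remaining libraries (24 h with TNF at 50 ng/ml, 72 h with and without it, and 1 week) entered only the shared estimate of spread.

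As background, embryonic neural stem cells are kept dividing by EGF receptor and Notch signals. The Notch pathway acts through RBPJ on repressors such as Hes1 and Hes5, while SOX factors, OLIG factors and proneural bHLH factors mark stem cells and the lineages open to them. BMP signals act through SMAD factors and induce ID proteins, which hold back bHLH factors, and together with JAK/STAT and NFI factors they turn stem cells towards astrocytes. A locus that opens or closes is a change of accessible DNA and not a measure of the gene's expression.

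The table gave reads divided by a size factor for each library, called normalised reads here. The recovered totals in peaks ran from 28636739 to 39349111 in NSPs and from 11758938 to 15083087 at 24 h, so depth was confounded with the groups. NSP replicate 1 stood apart, with a Spearman correlation across the 88919 tested peaks of 0.923 and 0.913 with the other NSP libraries, against 0.982 between those and 0.940 to 0.949 at 24 h. Of 21887 protein-coding genes, 8842 had at least 3 tested peaks in their neighbourhood, which is the gene body and the flanks within 100 kb that lie closest to it. The value of a neighbourhood is the sum of its peaks' normalised reads. Calls are Benjamini-Hochberg adjusted p-values under 0.05 from limma-trend. In bulk libraries, fewer cells with an open site and a less open site per cell cannot be told apart.

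The starts of 6 genes on which the comparison turned are shown first, because a peak at each of them opened or closed. They are the 250 bases before the start in RefSeq (GRCm38.p6), written 5′ to 3′ along the gene's strand. The peak covered all 250 bases of each. Capitals mark any match, on either strand, to 8 motifs: the AP-1 sequence TGANTCA, the CRE of CREB and ATF factors TGACGTCA, the E-box of bHLH factors CANNTG, the STAT sequence TTCNNNGAA, the RBPJ sequence GTGGGAA, the NF-Y sequence CCAAT, the GC box of SP and KLF factors GGGCGG, and the CArG box of SRF. Hes5, Olig2 and Fos closed and Smad6, Gfap and Id3 opened.
Hes5, chr4:154960673-154960922, plus strand: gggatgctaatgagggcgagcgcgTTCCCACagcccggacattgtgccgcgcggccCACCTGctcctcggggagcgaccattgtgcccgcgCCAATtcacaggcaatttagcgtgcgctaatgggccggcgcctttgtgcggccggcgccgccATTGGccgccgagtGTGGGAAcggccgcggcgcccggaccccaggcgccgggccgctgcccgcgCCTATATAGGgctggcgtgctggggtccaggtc
Olig2, chr16:91225300-91225549, plus strand: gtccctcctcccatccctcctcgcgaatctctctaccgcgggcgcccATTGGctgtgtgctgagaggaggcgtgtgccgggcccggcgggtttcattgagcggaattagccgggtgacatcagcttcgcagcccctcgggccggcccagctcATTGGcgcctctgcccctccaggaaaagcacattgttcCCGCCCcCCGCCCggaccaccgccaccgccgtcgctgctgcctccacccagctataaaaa
Fos, chr12:85473640-85473889, plus strand: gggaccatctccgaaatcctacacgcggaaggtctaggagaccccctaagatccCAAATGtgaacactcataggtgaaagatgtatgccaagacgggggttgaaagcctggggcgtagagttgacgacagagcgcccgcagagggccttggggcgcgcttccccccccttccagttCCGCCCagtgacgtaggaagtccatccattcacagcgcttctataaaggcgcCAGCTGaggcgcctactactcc
Smad6, chr9:64022060-64022309, minus strand: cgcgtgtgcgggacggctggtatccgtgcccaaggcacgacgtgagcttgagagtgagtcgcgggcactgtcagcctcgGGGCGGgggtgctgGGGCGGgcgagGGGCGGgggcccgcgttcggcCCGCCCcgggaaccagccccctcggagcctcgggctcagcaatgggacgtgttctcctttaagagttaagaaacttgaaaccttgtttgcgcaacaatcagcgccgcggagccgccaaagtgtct
Gfap, chr11:102897201-102897450, minus strand: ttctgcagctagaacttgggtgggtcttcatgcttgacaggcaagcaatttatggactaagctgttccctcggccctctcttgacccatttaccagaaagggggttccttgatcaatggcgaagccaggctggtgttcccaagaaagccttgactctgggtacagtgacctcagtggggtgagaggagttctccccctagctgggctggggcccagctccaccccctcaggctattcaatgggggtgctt
Id3, chr4:136143572-136143821, plus strand: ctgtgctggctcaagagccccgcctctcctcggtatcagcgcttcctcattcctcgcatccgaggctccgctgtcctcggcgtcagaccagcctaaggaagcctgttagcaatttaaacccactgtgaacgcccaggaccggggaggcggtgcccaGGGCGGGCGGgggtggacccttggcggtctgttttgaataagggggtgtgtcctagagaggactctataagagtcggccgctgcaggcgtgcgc

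The Hes5 start held 2 RBPJ matches, 2 CCAAT matches, 1 E-box and 1 CArG box that covers its TATA sequence. The Olig2 start held 2 CCAAT and 2 GC boxes, and that of Fos 2 E-boxes and 1 GC box. Those of Smad6 and Id3 held 4 and 2 GC boxes. In the Gfap window none of the 8 motifs was found, and its GC content was 55.6% with 2 CpG, against 71.6% with 32 CpG at Hes5. A match describes these letters and does not show that a factor was bound.

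Opened and closed peaks were about equally frequent and differed in size and place. Of 88919 tested peaks, 21492 (24.2%) were higher at 24 h and 20490 (23.0%) were lower. The median log2 change was 1.31 among the higher and -0.78 among the lower peaks, and a change of at least 4-fold was reached by 4786 higher and 627 lower peaks. Under a scaling by total reads, 67.9% of the calls were higher, against 51.2%.

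Gene starts were mostly lower when called. Among 10855 peaks with the centre within 1 kb of a gene start, 443 were higher and 4644 lower, with a median log2 change of -0.29. The 9883 peaks over 100 kb from any gene leaned the other way, with 3351 higher, 1694 lower and a median of 0.20. Peaks in gene bodies (10890 higher and 8675 lower of 41069) and those within 100 kb of a gene (6743 and 5475 of 26992) lay between. With total-read scaling the gene-start peaks still gave more lower (2037) than higher (838) calls, and the median of -0.10 stayed below that of all peaks, which was 0.11.

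**Figure D1:**
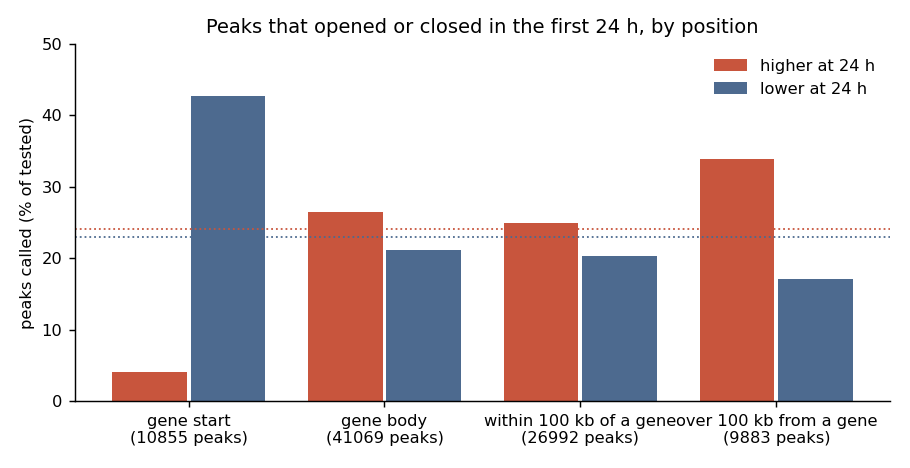
Bars give the percentage of tested peaks called higher (red) or lower (blue) at 24 h than in NSPs for 4 classes of position, and dotted lines give the percentage over all peaks. Gene starts had 4.08% higher and 42.8% lower peaks, and peaks over 100 kb from a gene 33.9% higher and 17.1% lower.

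At the level of genes, 1405 neighbourhoods (15.9%) were higher and 3931 (44.5%) were lower, with a median log2 change of -0.17. This split depends on the scaling. The median moved to 0.02 with total-read scaling, which called 2566 higher and 2010 lower, and to -0.01 with edgeR's TMM, which called 2375 and 2322. All 5 ways of scaling (the main fit, total reads, loess offsets, TMM and DESeq2) shared 1399 of the 1405 higher calls, but only 2001 of the 3931 lower calls. A small fall, up to about the median of -0.17, is therefore not set apart from the scaling, and the loci below are read against that median.

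The 6 opened neighbourhoods with the smallest p among those of at least 5 peaks were Slc6a19, Srrm4, Lgi1, Defb1, Dapl1 and Pdyn. The Slc6a19 neighbourhood, at a transporter of neutral amino acids, summed to 483, 442 and 432 normalised reads in the NSP libraries and 1289, 1307 and 1271 at 24 h. The log2 change was 1.51 ± 0.07 (fitted value ± SE from limma, as for all log2 changes with an error). Lgi1 encodes a secreted synaptic protein, and its sums were 437, 351 and 343 normalised reads in the NSP libraries and 1235, 1223 and 1255 at 24 h. All 9 of its peaks opened, for a log2 change of 1.72 ± 0.09. Srrm4, a splicing regulator of neurons, changed by 1.68 ± 0.08, and Pdyn, the precursor of dynorphins, by 1.55 ± 0.09. At Pdyn only 2 of the 8 peaks opened, and its change was as low as 0.59 in the other settings. Dapl1 changed by 1.40 ± 0.07. Defb1 rose from 182 ± 59.8 (SD, n = 3) to 1045 ± 115 (n = 3). It lies in a cluster of defensin genes, and whether reads were shared with related genes there was not tested.

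Among the closed neighbourhoods, the 6 chosen the same way were Gm52030, Sdc3, Olig2, Sall3, Arhgap12 and Myt1, and 3 of these are transcription factors. Sdc3, a cell-surface heparan sulfate proteoglycan, had sums of 5079.8, 5824 and 5725 normalised reads in the NSP libraries and 2518, 2703 and 2549.6 at 24 h. Of its 16 peaks 11 closed (log2 change -1.10 ± 0.06). Arhgap12 fell from 6031 ± 389 to 2267 ± 333 normalised reads (SD, n = 3 each), with 7 peaks lower and 2 higher of 10. The predicted gene Gm52030 changed by -1.26 ± 0.07, with 5 peaks lower and 2 higher of 10. In the other settings the log2 change was as weak as -0.35 at Arhgap12 and -0.45 at Gm52030.

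Most called transcription-factor loci were lower. Of 550 factors in 32 families, 331 had a tested neighbourhood, 154 had only 1 or 2 tested peaks and 65 had none. Of the 331, 37 were higher and 185 lower, which is 11.2% and 55.9% against 15.9% and 44.5% of all neighbourhoods, and the median log2 change was -0.26. Total-read scaling gave 66 higher and 114 lower, or 34.4% lower against 22.7% of all neighbourhoods, and TMM gave 60 and 123. The 5 scalings shared 36 of the 37 higher calls (the exception was Tbr1) and 113 of the 185 lower calls. These shares are counts, with no test of the difference.

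**Figure D2:**
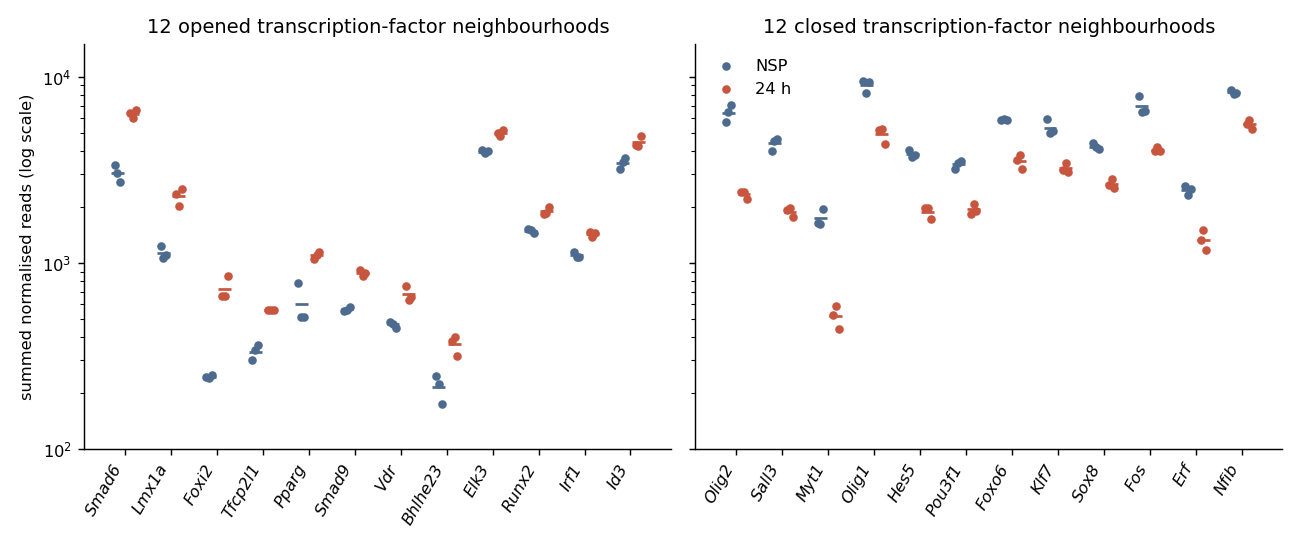
Summed normalised reads (log axis) of the 12 opened and 12 closed transcription-factor neighbourhoods with the smallest p, with 1 point per library and a line at the mean of 3 libraries, NSP in blue and 24 h in red. In each of the 24 loci the 3 points of one group lie apart from the 3 of the other, as the choice required.

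Smad6 had the smallest p of the opened factors. It encodes an inhibitory SMAD that restrains BMP signalling. Its neighbourhood summed to 3376, 3053 and 2725 normalised reads in the NSP libraries and 6372, 5973 and 6591 at 24 h. The log2 change was 1.05 ± 0.06, and it stayed between 0.97 and 1.24 in the other settings. Of 29 peaks, 21 opened and none closed. The peak with the smallest p lay 56.2 kb downstream of the start inside the gene (chr9:63965590-63966090), with 58.4, 60.3 and 51.2 normalised reads in the NSP libraries and 560.2, 475 and 471 at 24 h. All NSP values lay below the lowest 24 h value, and the site rose by 3.12 ± 0.12 on the log2 scale. The start, shown above, opened less, from 396 ± 77.7 to 739.7 ± 66.2 (SD, n = 3 each).

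The other SMAD loci did not move together. Smad9, a receptor-regulated SMAD of the BMP branch, also opened (0.65 ± 0.08), as 2 of its 4 peaks rose. Smad5 of the same branch closed (-1.01), and Smad1 gave 0.07 with no call. Smad4, the shared partner, Smad2 and Smad3 of the TGF-β branch and the inhibitor Smad7 were called lower, at -0.38, -0.25, -0.34 and -0.24. Smad2, Smad4 and Smad7 lay nearer the median of all loci than Smad5 did, and 3 of the 8 SMAD loci were higher and 2 or 3 lower in the other scalings and in the mean of log2 peak values. Of the BMP-induced ID genes, Id1 (0.30) and Id3 (0.38) opened, while Id2 (-0.05) and Id4 (-0.16) were not called.

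At Id3 the opening was near the gene and the closing far from it. The peak 3.34 kb upstream of the start (chr4:136140228-136140728) had 663, 484 and 571 normalised reads in the NSP libraries and 1145, 1108 and 1095 at 24 h, and the groups did not overlap. The peak 39.0 kb upstream went the other way, with 347, 683 and 711 normalised reads in the NSP libraries and 227, 226 and 250.03 at 24 h. NSP replicate 1 was the lowest of the NSP libraries there. In all, 5 of the 9 Id3 peaks opened and 2 closed. With the mean of log2 peak values in place of the sum, the Id3 change was 0.26 and was not called.

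Lmx1a, a LIM homeobox factor of the roof plate and of midbrain dopaminergic progenitors, opened within its gene body. Its sums were 1237, 1065 and 1105 normalised reads in the NSP libraries and 2359, 2031 and 2509 at 24 h, for a log2 change of 1.01 ± 0.08. The strongest peak (chr1:167761812-167762312), 72.5 kb downstream of the start, had 65.4, 43.3 and 62.5 normalised reads in the NSP libraries and 901, 748 and 985 at 24 h. The site was thus over 10-fold higher in each 24 h library than in any NSP library. Its mean was 627 at 24 h with TNF, 331 at 72 h and 353 at 1 week, given here as values only. Another intragenic peak, 14.1 kb downstream of the start, went from 12.3, 14.1 and 1.99 to 187, 125 and 189.7. The peak at the start of Lmx1a was not called (-0.18). Lmx1a was the only one of 16 tested LIM, EMX, OTX and PAX loci called higher. Of the 16, 12 were lower (75%, against 55.9% of all factor loci). In the other scalings and in the mean of log2 peak values 2 of the 16 were higher and 8 or 9 lower.

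Foxi2, a forkhead factor of ectodermal tissues, had the largest log2 change of any factor locus tested, 1.55 ± 0.12, and sums of 245, 241 and 251 normalised reads in the NSP libraries and 668, 664 and 849.9 at 24 h. Tfcp2l1, a factor of pluripotent cells and kidney epithelium, changed by 0.75 ± 0.09. Its strongest peak (chr1:118663778-118664278) went from 12.9, 10.8 and 13.3 normalised reads in NSPs to 113, 121 and 124.4, so the groups did not overlap. Nuclear receptors were among the opened loci too, with Pparg, a regulator of fat cell differentiation, at 0.90 ± 0.11 and the vitamin D receptor Vdr at 0.54 ± 0.07. At Pparg the NSP libraries were unequal, at 779 in replicate 1 and 516 and 511 in the others. All lay below the lowest 24 h value of 1047, as the choice required.

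Runx2, which directs bone and cartilage formation, rose by 0.34 ± 0.06, and 9 of its 21 peaks opened while 3 closed. Elk3, an ETS factor that partners SRF, rose by 0.34 ± 0.06. Irf1, a factor induced by interferon, rose by 0.38 ± 0.07, and its strongest peak (chr11:53761785-53762285) had 452, 541 and 538 normalised reads in the NSP libraries and 923, 795 and 910.2 at 24 h. Bhlhe23, a neural bHLH factor, changed by 0.77 ± 0.12, as 2 of its 3 peaks opened. Changes of Elk3, Runx2, Irf1 and Id3 were under 0.4 on the log2 scale, far smaller than those of Smad6 and Lmx1a.

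Olig2 had the smallest p of the closed factors. Olig2 and Olig1 are adjacent bHLH genes that specify oligodendrocytes and motor neurons. The Olig2 neighbourhood summed to 5749, 6446 and 7013 normalised reads in the NSP libraries and 2402, 2399 and 2207 at 24 h. The log2 change was -1.45 ± 0.08, with a range of -1.57 to -1.26 over the other settings. Of its 9 peaks 8 closed, and the remaining one was lower in all 3 libraries without passing the test. The start, shown above, had 1339, 1402 and 1673 normalised reads in the NSP libraries and 685, 639 and 671 at 24 h. A peak 8.10 kb downstream (chr16:91233399-91233899) fell furthest, from 592, 839 and 976 to 155, 143 and 140.4. Olig1 had sums of 9530.4, 8146 and 9325 normalised reads in the NSP libraries and 5195, 5266 and 4366 at 24 h, and 6 of its 8 peaks closed while 1 opened (-0.87 ± 0.07). Olig3, on another chromosome, also closed (-0.87), and all 3 loci were called lower in the other scalings too.

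**Figure D3:**
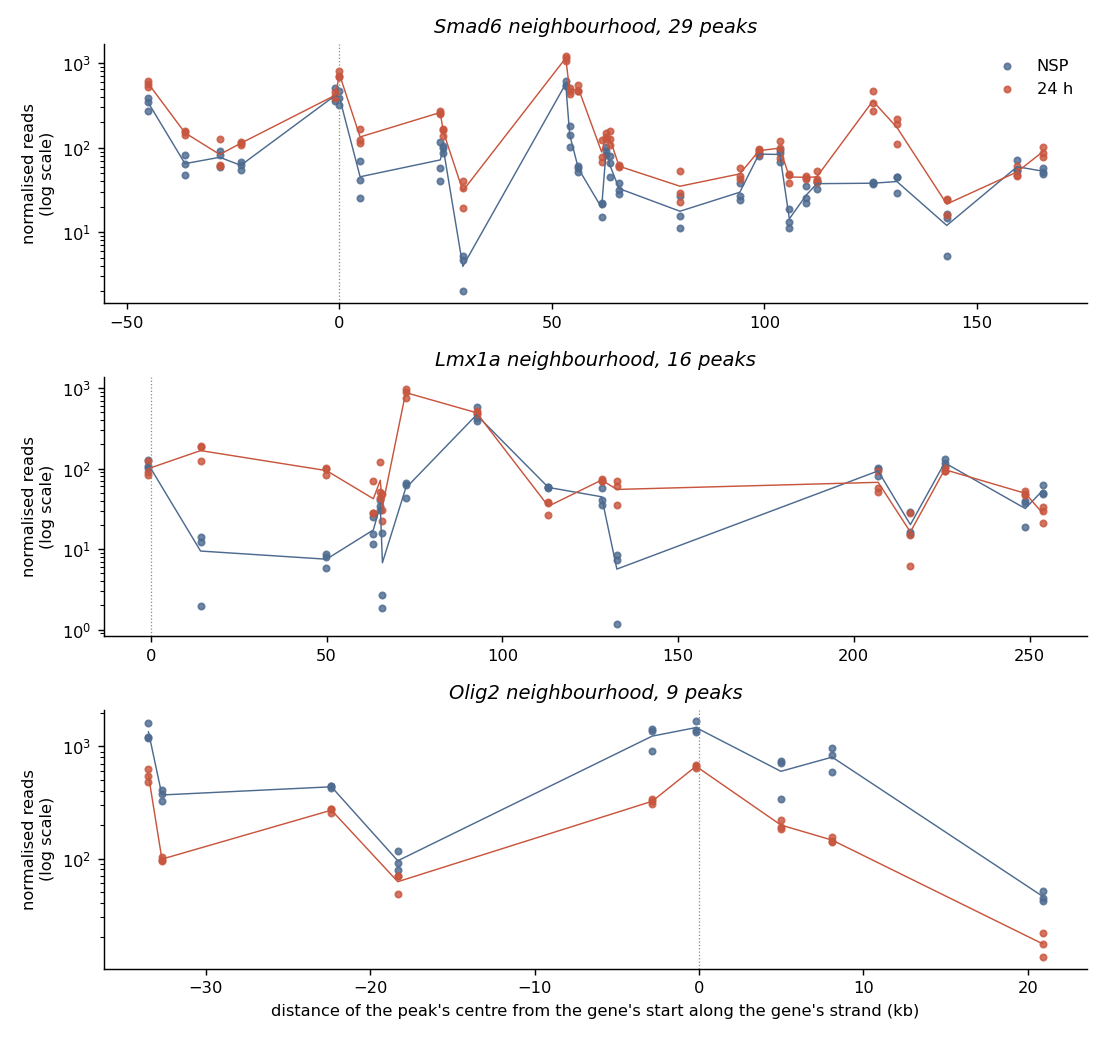
Normalised reads (log axis) of each tested peak of the Smad6, Lmx1a and Olig2 neighbourhoods against the distance of the peak's centre from the gene's start (kb), with 1 point per library and a line through the group means, NSP in blue and 24 h in red. Smad6 rose at 21 of 29 peaks, Lmx1a mainly at peaks within its body, and Olig2 fell at 8 of 9.

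Hes5, the Notch-induced repressor that holds stem cells undifferentiated, closed at its start. Its neighbourhood had sums of 4055, 3718 and 3784 normalised reads in the NSP libraries and 1966, 1968 and 1722 at 24 h and a log2 change of -1.03 ± 0.08. The start peak shown above had 2209, 1809 and 1909.7 normalised reads in the NSP libraries and 827, 816 and 590.0 at 24 h, whereas the peak 0.581 kb downstream stayed at 198 ± 32.4 and 198 ± 30.4 (SD, n = 3 each). The mean at the start was 198 at 72 h and 93.0 at 1 week. Hes1 closed as well (-0.48), and Hey2 was not called (-0.09).

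Myt1, a zinc finger factor of neuronal and oligodendroglial precursors, had the most negative change of all factor loci, -1.75 ± 0.11. The sums were 1648, 1617 and 1938 normalised reads in the NSP libraries and 525, 587 and 443 at 24 h, and 8 of 9 peaks closed. The peak at a downstream start of the gene (chr2:181795719-181796219) had 586, 641 and 801 normalised reads in the NSP libraries and 179.9, 168 and 143 at 24 h, and its mean reached 27.3 at 1 week. Sall3, another zinc finger factor, fell from 4388 ± 345 to 1889 ± 105 summed normalised reads (SD, n = 3 each), and 6 of its 12 peaks closed. Much of that fall came from 1 peak outside the gene (chr18:81051959-81052459), which went from 2090 ± 391 to 383 ± 56.3 (SD, n = 3 each). The Sall3 log2 change was -1.21 in the main fit and as weak as -0.52 in the other settings.

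Of the factors tied to growth signals, Fos, a subunit of AP-1 induced by growth factors, fell by 0.77 ± 0.07 (SE) on the log2 scale. The start peak had 971, 1041 and 1076 normalised reads in the NSP libraries and 398, 459 and 483 at 24 h, with no overlap. The AP-1, ATF and MAF family gave no higher and 13 lower loci of 22 (59.1% lower, against 55.9% of all factor loci), among them Fosb (-0.77) and Junb (-0.44), and 7 or 8 lower and 1 to 4 higher in the other scalings and in the mean of log2 peak values. Erf, an ETS repressor regulated by ERK, changed by -0.89 ± 0.08, with all 5 peaks lower. Klf7 (-0.72 ± 0.06) and Foxo6 (-0.74 ± 0.06) closed too. Pou3f1, a POU factor of neural and Schwann cell precursors, changed by -0.80 ± 0.06. Its strongest peak (chr4:124624061-124624561) had 706, 1172 and 1351 normalised reads in the NSP libraries and 235, 299 and 216 at 24 h, and NSP replicate 1 was again the lowest of its group.

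Several large loci held sites of both kinds. Nfib, an NFI factor that drives gliogenesis, had 13 closed and 6 opened peaks of 31, and its sums were 8459.7, 8118 and 8171 normalised reads in the NSP libraries and 5598, 5885 and 5211 at 24 h (log2 change -0.57 ± 0.05). Its relative Nfia had 27 closed and 11 opened peaks of 65, and changed by -0.45 ± 0.05. Among the 331 factor loci, 191 (57.7%) had at least 1 opened and 1 closed peak, as did 50.9% of all neighbourhoods. A further 43 had only opened and 81 only closed peaks. A locus with more peaks has more chances to hold both, so the count describes these loci only.

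Set out by family, SOX factors gave 0 higher and 11 lower of 13 (84.6% lower), and E2F and MYC factors 0 and 13 of 14 (92.9%). ETS factors gave 2 higher and 12 lower of 18 (66.7%). All factor loci gave 11.2% higher and 55.9% lower, and all neighbourhoods 15.9% and 44.5%, so ETS factors stood nearest to the background of these. In the other scalings and in the mean of log2 peak values, 8 or 9 SOX loci (61.5% to 69.2%) and 6 to 9 E2F and MYC loci (42.9% to 64.3%) were lower. For ETS loci it was 8 to 10 (44.4% to 55.6%), and for all neighbourhoods 21.5% to 26.4%. SOX factors maintain stem cells and specify glia, and E2F and MYC factors drive the cell cycle. Sox3 (-0.79), Sox8 (-0.67) and Sox2 (-0.40) were called lower, E2f8 (-0.72) and Myc (-0.65) too, while Sox9, an astroglial factor, gave -0.21 with no call. FOX factors gave 4 higher and 10 lower of 26 (15.4% and 38.5%), and 7 to 9 higher and 3 to 8 lower in the same alternatives. TBX factors gave 3 higher and 1 lower of 8 (37.5% and 12.5%), and the 1 lower call was lost in all of these alternatives.

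**Figure D4:**
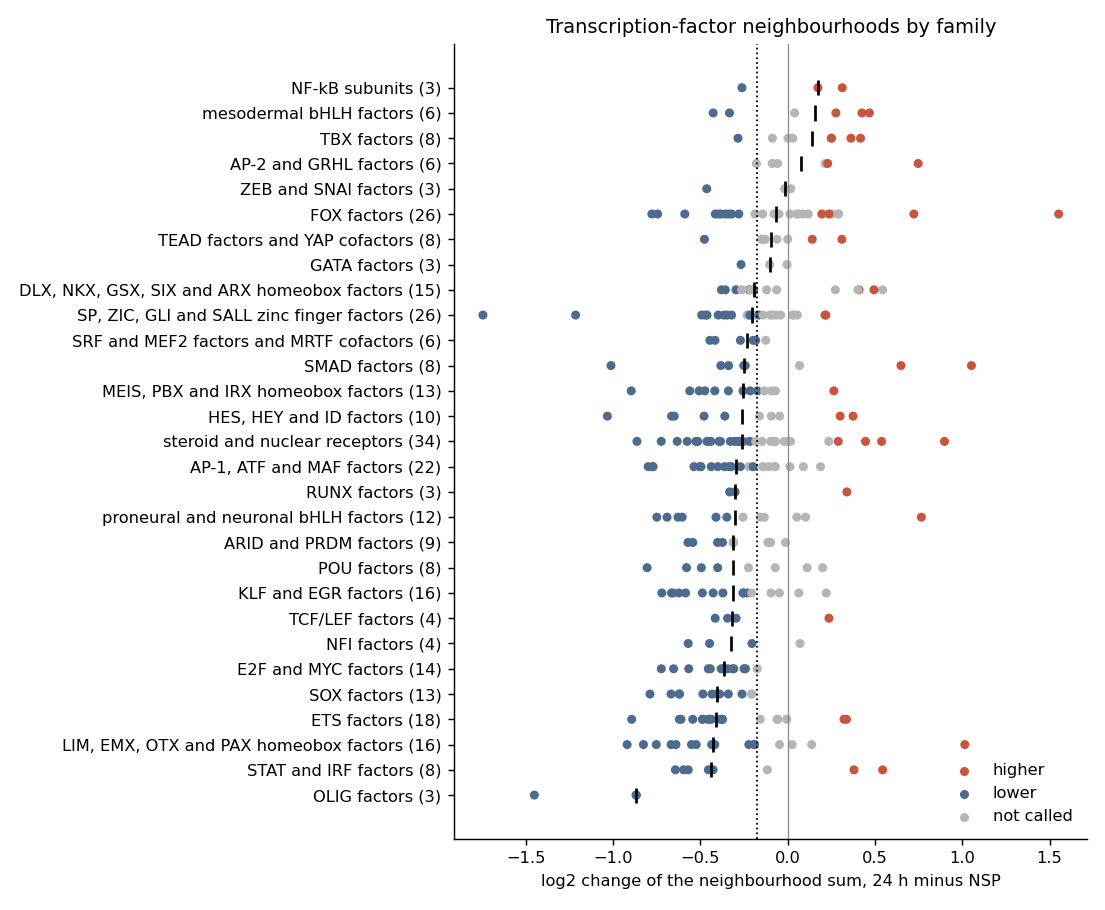
Each point is the log2 change (24 h minus NSP) of 1 transcription-factor neighbourhood, by family with the number tested, red if called higher, blue if lower and grey if not called. Black ticks are family medians, the dotted line is the median of all neighbourhoods (-0.17) and the solid line is 0. The OLIG, SOX and E2F and MYC families lie left of the dotted line, whereas Smad6, Lmx1a and Foxi2 stand out on the right.

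The loci of factors named in the study's footprint analysis at 24 h were examined as well. Of 15 such loci 13 could be tested. The accessibility of a factor's own gene is another quantity than the use of its motif. Esr1, the estrogen receptor α, was higher at 0.45 ± 0.11, and Stat5a, a transducer of cytokine signals, at 0.54 ± 0.11. Stat5a had sums of 437, 357 and 322 normalised reads in the NSP libraries and 536, 537 and 542 at 24 h. Dmbx1, a homeobox factor of the midbrain, was lower, with 716, 1026 and 1039 normalised reads in the NSP libraries and 503, 512 and 437 at 24 h (-0.92 ± 0.11). Arid3a (-0.54), Fosl2 (-0.54), Nfia (-0.45), Tcf21 (-0.43), Nr3c1 (-0.29) and Gata2 (-0.27) were also called lower. The calls of Tcf21, Nr3c1 and Gata2 were lost with total-read scaling and with TMM, that of Tcf21 also without 24 h replicate 1 (-0.34) and that of Gata2 without 24 h replicate 3 (-0.24). Atoh1 (0.05), Rarg (-0.18) and Arid5b (-0.01) were not called, and Dlx1 and Foxa1 had too few peaks for a neighbourhood value.

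Of the marker genes the study followed, Gfap, the intermediate filament of astrocytes, opened at its start. That peak had 186, 75.8 and 61.1 normalised reads in the NSP libraries and 511, 500.1 and 456 at 24 h, without overlap, and rose by 2.35 ± 0.22 on the log2 scale. NSP replicate 1 was the most open of the NSP libraries. The largest Gfap peak, 1.34 kb upstream, was already open in NSPs (2205, 1683 and 1669) and was not called. The neighbourhood of 4 peaks rose by 0.37 ± 0.10. Clcf1, a cytokine of the CNTF family, rose by 1.14 ± 0.26, from 369 ± 30.5 to 816 ± 49.0 (SD, n = 3 each). Its 3 peaks were listed at 1 read in each of the 10 libraries of 72 h, 72 h with TNF and 1 week, as were 223 more tested peaks, so no later value is given. Cd44, a hyaluronan receptor, and the glutamate transporter gene Slc1a2 gave 0.24 and 0.30, and both calls were lost with the 6 libraries alone. Cd44 also lost its call without 24 h replicate 3 (0.20) or NSP replicate 1 (0.16), and Slc1a2 without 24 h replicate 2 (0.29) or 3 (0.30) or NSP replicate 2 (0.19) or 3 (0.17). The libraries of the groups overlapped at Slc1a2, where NSP replicate 1 reached 1854 and the highest 24 h value was 1669.9. The glutamate transporter gene Slc1a3 (-0.36), Slc14a1 (-0.29) and the proliferation marker Mki67 (-0.23) were called lower, and the calls of Slc14a1 and Mki67 were lost with TMM. Slc1a3 lost its call with the mean of log2 peak values, with which Mki67 changed sign (0.088). Gpld1 (-0.12), Gja1 (0.14) and Kcnj10 (-0.10) were not called, and Ccnb1 and Egr1 were not tested. Gja1, a connexin of astrocytes, was called higher with TMM (0.30) and with total-read scaling (0.33).

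The labelled cell types were checked against their markers. Over the 12 neural stem cell markers the summed normalised reads ran from 34621 to 38238 in NSPs and 27423 to 29191 at 24 h, and 9 of the 12 loci were lower and 1 higher. Nes, the stem cell filament nestin, gave -0.86 and Egfr -0.56, while Prom1, which encodes CD133, opened (0.35). In the other scalings and in the mean of log2 peak values 5 to 7 were lower and 2 higher. Over all neighbourhoods the main fit called 44.5% lower and 15.9% higher, and those alternatives 21.5% to 26.4% lower and 26.7% to 33.3% higher. These shares are the background for this and the following lists. The 15 astrocyte genes ran from 39895 to 46929 in NSPs and 37664 to 40633 at 24 h and gave 4 higher and 6 lower loci, and 5 to 7 higher and 2 or 3 lower in those alternatives. The water channel gene Aqp4 opened most, with 2403, 1816 and 1811 normalised reads in the NSP libraries and 3789, 3570.0 and 3535 at 24 h (log2 change 0.87 ± 0.08). Clu, which encodes clusterin, followed (0.77), and S100b, a calcium-binding protein of astrocytes, closed (-0.59).

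Marker loci of other cell types held reads in both groups. The 8 tested oligodendrocyte lineage loci ran from 24771 to 26698 in NSPs and 14083 to 15411 at 24 h, with 6 lower and none higher, and 4 to 6 lower and 1 or 2 higher in the other scalings and in the mean of log2 peak values. After Olig2, the NG2 proteoglycan gene Cspg4 fell most, with 2377, 2557 and 2426 normalised reads in the NSP libraries and 1012, 1102 and 1029.7 at 24 h and no overlap (-1.23 ± 0.08). Of 7 fibroblast and pericyte loci 4 were higher, with Col1a2 (0.70) and Pdgfrb (0.52) first, and 3 lower, namely Pdgfra (-0.42), Foxc1 (-0.41) and Col1a1 (-0.41), while the sums ran from 5024 to 5621 in NSPs and 4994 to 5310.1 at 24 h. The 9 neuron loci ran from 12824 to 13481 in NSPs and 9945 to 10799.9 at 24 h, with 5 lower, among them Gad1 (-0.96), and 1 higher, Slc17a6 (0.44). The calls of Col1a1 and Gad1 were lost with the mean of log2 peak values. The 3 tested microglia loci ran from 1478 to 1778 in NSPs and 1722 to 1964 at 24 h, with 1 higher. The 8 tested endothelial loci ran from 7348 to 8297 in NSPs and 7021 to 7535 at 24 h, with 2 higher and 2 lower, and 2 or 3 higher and at most 1 lower in the same alternatives. The lower call of Vwf, the von Willebrand factor gene (-0.21), was lost in 11 settings, TMM and total-read scaling among them, and without 24 h replicate 1 (-0.22) or 3 (-0.14) or NSP replicate 2 (-0.20) or 3 (-0.16). The part of such cells in the results was not tested.

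Most genes of the EGF receptor pathway were lower. Of 18 tested loci 15 (83.3%) were lower and 1 (5.56%) higher, against 44.5% and 15.9% of all neighbourhoods. The median log2 change was -0.59, against -0.17 over all neighbourhoods. The other scalings and the mean of log2 peak values gave 12 or 13 lower and 2 higher. The 4 most negative loci were those of Spred1, Dusp6, Spry2 and Dusp5, which encode inhibitors of the pathway. Spred1, an inhibitor of RAS signalling, had sums of 2159, 1765 and 2009 normalised reads in the NSP libraries and 993, 1002 and 825 at 24 h (-1.07 ± 0.09). Spry2, a Sprouty inhibitor of receptor tyrosine kinases, had 3673, 3418 and 3774 normalised reads in the NSP libraries and 2071, 2005 and 1839 at 24 h (-0.88 ± 0.07). The ERK phosphatase genes Dusp6 (-0.96), Dusp5 (-0.82) and Dusp4 (-0.67) and the ETS targets Etv4 (-0.62) and Etv5 (-0.54) were lower. Egfr itself gave -0.56, and its call was lost with the mean of log2 peak values. Only the receptor gene Erbb4 was called higher (0.17), and that call was lost with the 6 libraries alone and without 24 h replicate 3 (0.15), NSP replicate 2 (0.12) or NSP replicate 3 (0.14). EGF was in the medium of NSPs, which had been exchanged for medium with serum in the 24 h cultures. Attachment differed too, so the effects of these on the EGF receptor pathway loci cannot be told apart.

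Notch pathway loci were mostly lower too, with 15 lower and 1 higher of 21 (71.4% and 4.76%) and a median of -0.40. Of all neighbourhoods 44.5% were lower and 15.9% higher. In the other scalings and in the mean of log2 peak values 10 to 12 Notch loci were lower and 1 to 5 higher. Besides Hes5, the feedback regulator Nrarp had 2416, 2549 and 2394 normalised reads in the NSP libraries and 1252, 1334 and 1173 at 24 h, with no overlap between groups (-0.97 ± 0.07). The ligand genes Jag1 (-0.86), Dll1 (-0.73) and Dll3 (-0.70) were lower, the receptor genes Notch1 (-0.17) and Notch2 (-0.27) fell less, and Notch3 (0.04) was not called. Dner, a neuronal Notch ligand, was the one locus called higher (0.28).

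Among cell cycle genes 13 of 17 (76.5%) were lower and none was higher, against 44.5% and 15.9% of all neighbourhoods. In the other scalings and in the mean of log2 peak values 6 or 7 (35.3% to 41.2%) were lower, against 21.5% to 26.4% of all, and 2 to 4 were higher. The D-type cyclin gene Ccnd2, which passes growth signals to the cell cycle, led with 1624, 2399 and 2400.1 normalised reads in the NSP libraries and 821, 832 and 907 at 24 h (log2 change -1.30 ± 0.11). Ccnd1 (-0.70) and Ccnd3 (-0.52) were lower as well, and so was the inhibitor gene Cdkn1a (-0.63), so members with opposite roles were lower together. The call of Ccnd3 was lost with the mean of log2 peak values.

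Matrix and adhesion genes were mixed, with 7 higher and 8 lower of 24 (29.2% and 33.3%). In the other scalings and in the mean of log2 peak values 11 or 12 were higher and 2 to 4 lower. Itga3, the integrin α3 subunit that binds laminin, had sums of 311, 309.5 and 248 normalised reads in the NSP libraries and 759, 587 and 813 at 24 h and rose by 1.30 ± 0.11 on the log2 scale. Ccn2, a matricellular target of TGF-β and YAP, rose by 0.71 ± 0.09. Itgav, the integrin αv subunit, fell by 0.63 ± 0.08 (SE). Of 20 contractile and actin loci 3 were higher and 12 lower (15% and 60%, against 15.9% and 44.5% of all neighbourhoods). In the same alternatives 4 or 5 were higher and 6 to 8 lower. Acta2, smooth muscle actin, had 475, 766 and 686 normalised reads in the NSP libraries and 1104, 979.5 and 1041 at 24 h (0.72 ± 0.11), Actn4 rose by 0.46 ± 0.06, and the cytoplasmic actin gene Actb (-0.79) and the filamin gene Flna (-0.52) were lower.

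**Figure D5:**
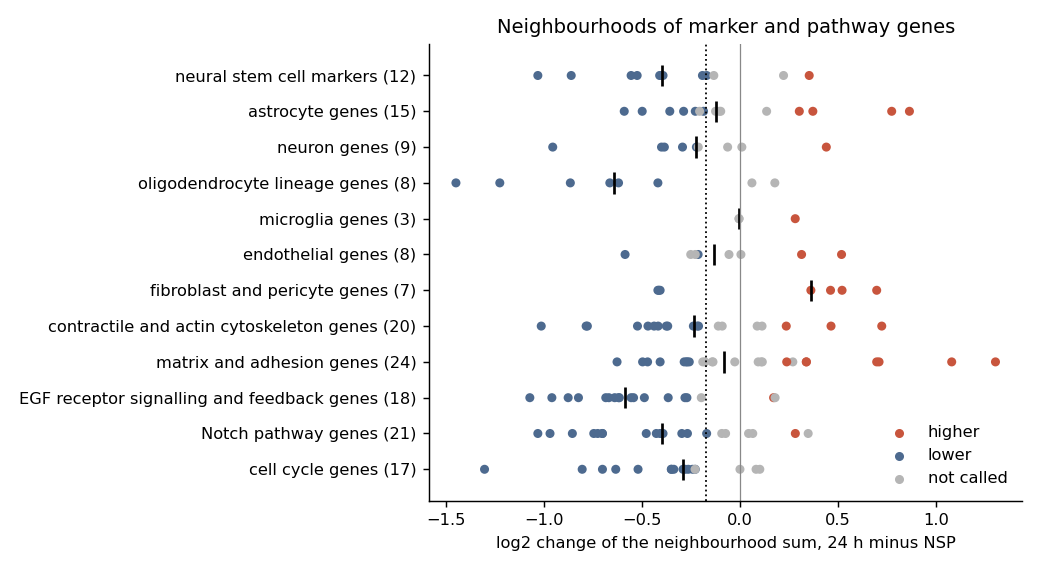
Log2 change (24 h minus NSP) of the neighbourhoods of marker and pathway genes, with the number tested, red if called higher, blue if lower and grey if not called. Black ticks are list medians and the dotted line is the median of all neighbourhoods. EGF receptor, Notch, cell cycle and oligodendrocyte loci lie mostly left of it, and fibroblast and pericyte loci lie on both sides.

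Consecutive peaks with the same call formed runs. There were 244 runs of at least 5 consecutive tested peaks called higher and 211 called lower. The longest opened run was made of 14 peaks over 94.7 kb (chr9:63927613-64022314), all in the Smad6 neighbourhood, with log2 changes from 0.57 to 3.12. Runs of 12 peaks lay at Snx29 and Cpped1 on chromosome 16, near Scaf8 on chromosome 17 (7 peaks assigned to it) and in the defensin cluster on chromosome 8. A run of 11 over 259 kb of chromosome 8 had 2 peaks assigned to Phkb and the others to no gene. Whether reads were split among related defensin genes was not tested. The longest closed runs had 11 peaks each. One covered Sufu, an inhibitor of Hedgehog signalling, with Trim8 and Arl3 over 47.4 kb of chromosome 19, and the other 8 Olig2 peaks with 3 of its neighbour 4932438H23Rik over 73.2 kb of chromosome 16 (chr16:91160667-91233899). The latter had a median log2 change of -1.28. Closed runs of 10 peaks lay at Map4k4, Adgrg1 and Adgrg5, Dagla, and a stretch of chromosome 15 with Fam186b, Prpf40b, Fmnl3 and Tmbim6.

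The starts of transcription-factor genes gave shares of calls near those of all gene starts. Of 328 tested peaks at such starts 9 were higher and 151 lower (median log2 change -0.33), which is 2.74% and 46.0% against 4.08% and 42.8% of all gene-start peaks, and the counts were 14 and 90 with total-read scaling. Besides those of Smad6, Stat5a and Id3, opened starts included that of Mef2c, a factor of muscle and neurons, at 2.09, and that of Atoh8, a bHLH factor, at 1.11, both named after their values were seen. Over all genes, the 300-base windows around the starts that opened differed in composition from those that closed. The median GC content was 54.0% in the 427 windows at opened peaks, 63.3% in the 4573 at closed peaks, 60.7% in the 5436 at peaks not called and 56.3% in all 21263 windows. The GC box was found in 35.8% of the opened and 73.4% of the closed windows (63.1% of those not called and 46.2% of all windows). The AP-1 sequence TGANTCA was found in 12.2% of the opened and 3.48% of the closed windows (5.06% of those not called and 6.99% of all). For the RBPJ sequence the shares of opened, closed, not called and all windows were 10.5%, 5.73%, 6.18% and 6.07%. For E-boxes they were 72.6%, 60.9%, 63.3% and 69.0%. Many of all windows held no tested peak, and the closed windows differed less from those not called than the opened ones did. Base composition moved with these shares, and its part in them was not tested.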

How the data were processed

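The processed table held 90154 peaks for 19 ATAC-seq libraries. Per the labels and methods, the authors trimmed, aligned (mm10 in the submitters' processing notes) and called peaks with Trim Galore, Bowtie2, SAMtools and MACS2, versions not given there. The deposited values are a normalised signal of whole reads divided by a size factor, with a floor of 1 read. No column was left unused. Log2(signal + 1) was fitted with limma 3.58.1 (R 4.3.3; limma-trend, group means, all 19 libraries) for the 88919 peaks kept by filterByExpr at a minimum count of 10, with Benjamini-Hochberg adjustment at 0.05. Neighbourhood sums were fitted the same way, as fold changes on that scale. Reads recovered from the table (100% whole within 0.001 reads) went into edgeR 4.0.16 and DESeq2 1.42.0 as alternatives. Peaks were assigned by RefSeq GRCm38.p6 to the protein-coding gene whose body holds the centre, or else the gene with the closest end within 100 kb. Scripts were tested on simulated data.

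The members, lists and tests were chosen with earlier results of these data known, and the list genes described, motifs and limits for runs and folds after values were seen. Named by rule were the 6 higher and 6 lower neighbourhoods (at least 5 peaks) and the 12 higher and 12 lower transcription factors with the smallest p and no overlap between groups, the genes the study names, up to 2 per direction of each list and the 5 longest runs per direction. Labels do not tie libraries to separate cultures, so p-values measure the spread between these libraries. Deviations from the group mean gave no sign of pairing by replicate number, and the main fit used none. Their correlations were 0.018, -0.031 and 0.012 for the same number and -0.046 to 0.062 for different numbers. Such values cannot exclude that libraries with the same number shared a culture. Some loci that the rule names are not reported here.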

Additional observations from a re-analysis of the deposited data

How the results depend on the processing

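Neighbourhood counts depended on the scaling, and moved furthest with the mean of log2 peak values in place of the sum. Higher neighbourhoods numbered 1405, against 2425 with DESeq2, 2375 with edgeR, 2360 with loess offsets, 2566 with total-read scaling and 2946 with the mean of log2 peak values. Lower neighbourhoods numbered 3931, against 2337, 2322, 2238, 2010 and 1902 in the same order, 2565 without peaks at gene ends and 2588 of 5436 with at least 5 peaks. Higher transcription-factor loci numbered 37, against 62, 60, 58, 66 and 74 in the same order. Lower ones numbered 185, against 123 (edgeR), 119 (loess), 114 (total reads) and 105 (mean of log2 values). Lower peaks fell to 12367 with total-read scaling from 20490. The share of calls that were higher was 26.3% for neighbourhoods and 16.7% for factors, against 56.1% and 36.7% with total reads. The cause of these moves was not tested.

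Without single replicates, higher peaks ranged from 19039 to 22425, lower peaks from 16119 to 21052, higher neighbourhoods from 1245 to 1616, lower ones from 3223 to 3874, higher factors from 33 to 42 and lower factors from 163 to 183. The replicate block gave 21386 higher and 20147 lower peaks, 1392 and 3843 neighbourhoods and 37 and 184 factors. With only the NSP and 24 h libraries, all counts were smaller than in the main fit. That fit called 17394 peaks higher and 15857 lower, 1035 and 2903 neighbourhoods, and 25 and 145 factors. Part of the main calls therefore rests on the spread shared with the other libraries. Adding the replicate block to the fit of these 6 libraries gave 24 higher and 150 lower factors.

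Some loci near 0 changed sign. Arid5b gave 0.16 (DESeq2), 0.15 (edgeR), 0.18 (loess), 0.28 (mean of log2 values) and 0.18 (total reads), and -0.059 to 0.039 without single replicates. In the same order Kcnj10 gave 0.074, 0.071, 0.086, 0.32, 0.092 and, without single replicates, -0.161 to 0.022, and Gpld1 gave 0.049, 0.046, 0.071, 0.40, 0.067 and -0.196 to 0.00052. Atoh1 ranged from -0.087 to 0.146 without single replicates, and Rarg gave 0.0075 with total reads. With the mean of log2 values Gata2 gave 0.62 and Mki67 0.088, and Mki67 gave 0.12 without peaks at gene ends. The causes were not tested. NSP libraries were deeper than those at 24 h, and small falls are limited by the scaling.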

Other observations

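Sites with few reads in NSPs that opened at 24 h were counted by position. Peaks under 10 normalised reads in all 3 NSP libraries and over 50 in all 3 libraries at 24 h numbered 187, of which 87 lay in gene bodies, 65 within 100 kb of a gene, 35 farther away and 0 at gene starts. The reverse was seen at 1 peak, near Bend4, whose log2 change was -3.48. These limits were set after the values were seen. The limit in NSPs itself leaves out sites already open there, and the share of gene starts among all sites under it was not counted. Of all 4786 peaks higher by at least 4-fold, 35 lay at gene starts. A site in the body of Pawr, which encodes a pro-apoptotic regulator, had 6.43, 1.88 and 1.99 normalised reads in NSPs and 202, 205 and 271 at 24 h. At Arpin, an inhibitor of the Arp2/3 complex, the values were 7.01, 4.71 and 3.99 against 216, 180.0 and 212. Of these 187 peaks, 7 lay in transcription-factor neighbourhoods, those of Tfcp2, Lmx1a, Maf, Etv6, Grhl2, Foxp1 and Runx2. That share is close to the background, as the tested factor neighbourhoods held 3218 of the 88919 tested peaks.

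Of 6 mesodermal bHLH loci 3 were higher and 2 lower, and 2 to 4 were higher and at most 1 lower in the other scalings and in the mean of log2 peak values. Of 34 tested nuclear receptor loci 4 were higher and 20 lower (11.8% and 58.8%), near the 11.2% and 55.9% of all factor loci. In the other scalings and in the mean of log2 peak values 6 to 8 were higher and 9 to 11 lower. Of 120 tested peaks on unplaced or patch sequences 65 were higher and 2 lower, and these sequences are not used in any neighbourhood.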
